A study of Sus scrofa with 6 samples.

Results

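The let-7 and miR-98 family was followed in small extracellular vesicles (s-EVs) from porcine follicular fluid. Its 9 members are the rows of the deposited table named ssc-let-7a, ssc-let-7c, ssc-let-7d-5p, ssc-let-7d-3p, ssc-let-7e, ssc-let-7f-5p, ssc-let-7g, ssc-let-7i-5p and ssc-miR-98, out of 453 miRNAs. They were taken by name, and all 9 were among the 309 miRNAs tested, those with a mean above 1 CPM (TMM-adjusted counts per 1e+06 reads) in either group. Ovaries came from prepubertal gilts of Landrace and Large White stock, and follicles measured 2 to 6 mm according to the sample labels, while the study's methods state a higher lower limit. Oocytes were tested with lissamine green B, a dye that enters through damaged membranes. HQ samples held fluid of follicles with an unstained oocyte, and LQ samples fluid of follicles with a stained one. No other treatment separated the groups. Each of the 3 HQ and 3 LQ libraries came from s-EVs of 0.5 mL of pooled fluid, described by the labels as biological replicates. A replicate is therefore a pool of follicles, and because the sources do not say how many gilts stand behind a pool, p-values measure only the spread between these pools.

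A miRNA is cut from a hairpin precursor, and usually the guide arm is loaded into an Argonaute protein while the other arm, the passenger, is degraded. The seed, bases 2 to 8 of the guide, pairs with target mRNAs and lowers their translation or stability, so miRNAs with the same seed share most predicted targets. The let-7 miRNAs, first known from the timing of larval development in Caenorhabditis elegans, restrain proliferation and growth genes such as the RAS genes and HMGA2 in mammals, and their maturation is blocked by the RNA-binding protein LIN28. They are abundant in differentiated mammalian cells, ovarian somatic cells included.

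The mature sequences show how little separates the members. They are given 5′ to 3′ from the Sscrofa11.1 RefSeq annotation with the seed in capitals. ssc-let-7f-5p and ssc-let-7i-5p were matched to entries without an arm in their name, and the let-7i entry is the shorter one, at 19 bases.
ssc-let-7a: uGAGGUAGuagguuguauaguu
ssc-let-7c: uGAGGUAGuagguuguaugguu
ssc-let-7d-5p: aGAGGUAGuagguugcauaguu
ssc-let-7e: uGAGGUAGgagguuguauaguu
ssc-let-7f-5p: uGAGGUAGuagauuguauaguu
ssc-let-7g: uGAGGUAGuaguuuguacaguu
ssc-let-7i-5p: uGAGGUAGuaguuugugcu
ssc-miR-98: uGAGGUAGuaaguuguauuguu
ssc-let-7d-3p: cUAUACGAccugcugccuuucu

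The 8 guide members carried the identical seed GAGGUAG, and they were the only ones among 369 annotated mature porcine miRNA names to do so. ssc-let-7d-3p, the arm opposite to let-7d-5p, had the seed UAUACGA. Counted from 1 at the 5′ end, with the base of let-7a first, let-7c differed from let-7a by A19G, let-7e by U9G and let-7f-5p by G12A. let-7d-5p differed by U1A and U16C, and miR-98 by G11A and A19U. let-7g and let-7i-5p shared G12U and U18C, and let-7i-5p also had A17G and A19U. Pairs of guide members differed at 1 to 6 of the bases compared, so reads with a sequencing error or a trimmed end can be given to the wrong member, and how far this occurred was not tested. GC content ran from 31.8% in let-7f-5p and miR-98 to 42.1% in let-7i-5p among the guides, and was 50.0% in let-7d-3p.

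The members lie at 10 hairpin loci of Sscrofa11.1. let-7a-2, let-7f-2 and let-7d form a cluster between genes on chromosome 3, with hairpins at 43465667 to 43465758, 43466034 to 43466130 and 43468501 to 43468596. The second let-7a locus lies on chromosome 9 (49152637 to 49152658), outside annotated host genes, as does let-7e on chromosome 6 (58332091 to 58332112) and let-7i on chromosome 5 (27252807 to 27252825). let-7g is inside an intron of WDR82 on chromosome 13 (34406195 to 34406216). let-7c is on the same chromosome, inside an intron of LOC106508546 (181303224 to 181303245). miR-98 (46302436 to 46302457) and the second let-7f locus (46303299 to 46303320) both lie in introns of HUWE1 on chromosome X. Reads of let-7a and let-7f-5p cannot be assigned to either of their 2 loci. GGAG, the core letters of the LIN28 recognition motif, was found on the RNA strand of 9 of the 10 hairpins, all but that of miR-98, against 37.8% of the 315 annotated porcine hairpins. A match of 4 letters is no evidence of binding.

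The libraries were not equally deep. All values lay on whole steps of one size per library (to within 6.66e-05 of a step), and taking a step as 1 read gave 898530 reads in LQ replicate 1, 3159116 in LQ replicate 3 and 1643814 to 2343594 in the other libraries. At that reading the rarest member, miR-98, rested on 103 to 243 reads per library and the let-7d arms on 498 to 3036. LQ replicate 1 stood apart within its group for several members, so results are given with and without it. The summed level of 4 listed muscle miRNAs was 56.5 to 64.3 CPM in HQ and 147 to 230 CPM in LQ, and that of both endothelial miR-126 arms 874 to 1062 CPM in HQ and 1619 to 2149 CPM in LQ. Leukocyte markers summed to 193 to 213 CPM in HQ and 217 to 318 CPM in LQ, erythrocyte markers to 99.3 to 152 CPM and 78.0 to 87.3 CPM, and the gonad list, mostly miR-202-5p, to 40272 to 89372 CPM and 61426 to 76648 CPM. Of the muscle miRNAs 3 of 4 passed as higher in LQ, and of the leukocyte markers 1 of 5. Of the 3 tested gonad miRNAs only 1, miR-202-3p, passed, as higher in HQ. Of the miR-126 arms only miR-126-5p passed, as higher in LQ. miR-126-3p overlapped between the groups, at means of 277 CPM in HQ and 312 CPM in LQ. The erythrocyte sum was mostly miR-486, which passed as higher in HQ, while miR-451 passed as higher in LQ (15.1 against 6.22 CPM). The neural list summed to 25454 to 37683 CPM in HQ and 20284 to 25512 CPM in LQ. That sum was mostly miR-128, which did not pass (means of 31129 CPM in HQ and 22444 CPM in LQ, adjusted p = 0.0847 from limma). The other 3 of the 4 tested neural miRNAs passed the test used for the members as higher in LQ. Both arms of miR-122, the liver marker, summed to 338 to 437 CPM in HQ and 447 to 825 CPM in LQ, above in every LQ library, and neither arm passed (adjusted p = 0.103 from limma for miR-122-5p). The part of these markers in the results on let-7 was not tested.

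let-7c, let-7a, let-7f-5p and let-7i-5p made up most of the family in both groups. Levels are CPM per miRNA and are not scaled to length, the annotated lengths being 19 to 22 bases. In HQ, let-7c was highest at 39828 ± 4432 CPM (SD, n = 3) and miR-98 lowest at 96.5 ± 12.8 CPM (SD, n = 3), a ratio of 413. The HQ order was let-7c, let-7a, let-7f-5p, let-7i-5p, let-7g, let-7e, let-7d-3p, let-7d-5p and miR-98. Each stood above the next in all 3 libraries except let-7f-5p over let-7i-5p and let-7d-3p over let-7d-5p, where this held in 2 of 3. In LQ, let-7i-5p moved up to the second place, behind let-7c in 2 of 3 libraries, and let-7d-5p stood above let-7d-3p in 3 of 3. Among all miRNAs, let-7c ranked 6 in HQ and 8 in LQ, and let-7i-5p ranked 18 in HQ and 10 in LQ.

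**Figure D1:**
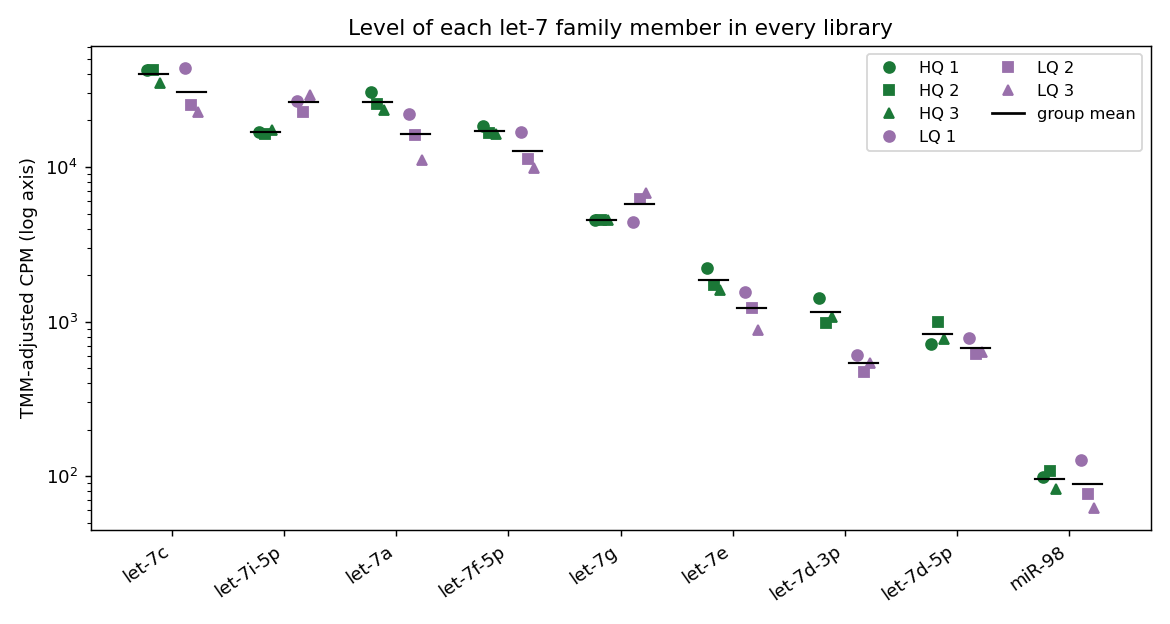
TMM-adjusted CPM (log axis) of the 9 members in each of the 3 HQ and 3 LQ libraries, with black bars at the group means. The let-7i-5p points of LQ, 22778 to 29293 CPM, lie above all HQ points, while the let-7d-3p points of LQ, 474 to 612 CPM, lie below all HQ points.

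Some members of the family passed the test between HQ and LQ s-EVs, in both directions. let-7d-3p and let-7a were higher in HQ, let-7i-5p was higher in LQ, and the other 6 members did not pass the test. The comparison asked which miRNAs differ with the quality of the oocyte from the same follicles. It was made with limma on log2(CPM + 0.5) over all 309 miRNAs, with Benjamini-Hochberg adjustment and an adjusted p under 0.05 as the threshold. Among all tested miRNAs, 11.7% passed as higher in HQ and 14.9% as higher in LQ, against 2 and 1 of the 9 members. The groups did not overlap in 4 members (let-7a, let-7d-3p and let-7e with HQ above, let-7i-5p with LQ above), against 43.7% of all miRNAs. The median log2 difference, HQ minus LQ, was 0.44 over the 9 members and 0.36 over the 8 guides, beside 0.08 over all miRNAs tested. The share without overlap was thus near that of all miRNAs. Counts of 2 and 1 out of 9 are too small to set the family apart from all miRNAs. Without LQ replicate 1, let-7c, let-7e and let-7f-5p passed as well, giving 5 members with HQ above and 1 with LQ above. The shares over all miRNAs were larger in that fit too, at 15.4% and 19.6%. Leaving out HQ replicate 1, HQ replicate 2, LQ replicate 2 or LQ replicate 3 instead left 1 member passing with HQ above. In those fits 2.90% to 9.06% of all miRNAs passed as higher in HQ. In bulk vesicle RNA, fewer vesicles of one source and fewer copies per vesicle cannot be told apart.

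**Figure D2:**
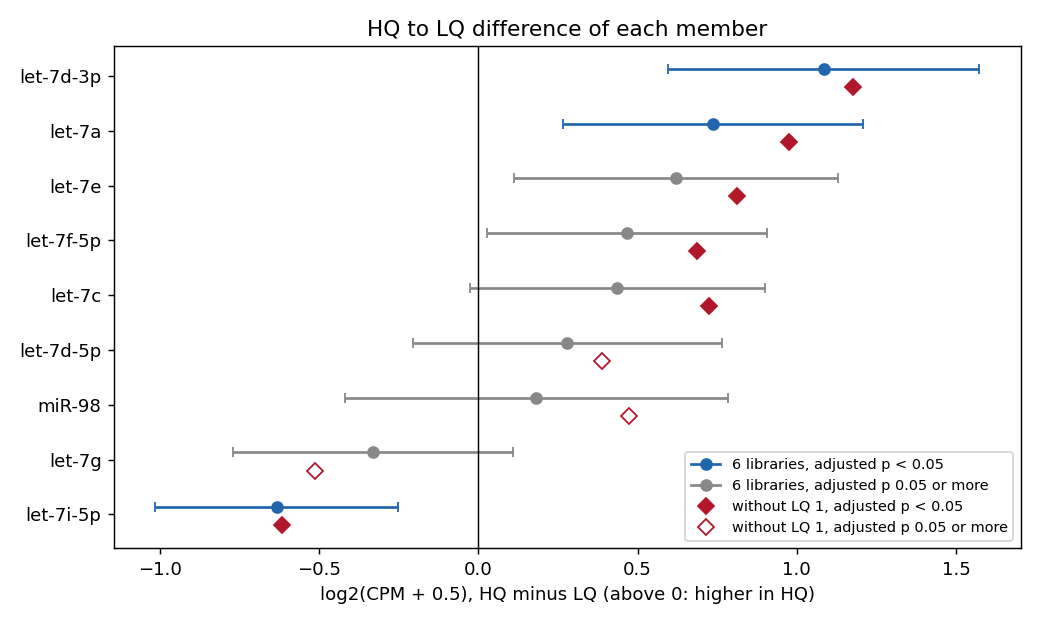
HQ minus LQ difference of each member on the log2(CPM + 0.5) scale, circles with the 95% interval from limma over 6 libraries and diamonds without LQ replicate 1. With 6 libraries let-7d-3p (1.08), let-7a (0.74) and let-7i-5p (-0.63) passed, and without LQ replicate 1 let-7c (0.73), let-7e (0.81) and let-7f-5p (0.69) passed too.

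let-7d-3p, the passenger arm, had the largest difference of the family. It was at 1425, 972 and 1076 CPM in HQ replicates 1 to 3 and at 612, 474 and 538 CPM in LQ replicates 1 to 3. Every HQ library lay above every LQ library, and LQ replicate 1 was not set apart here. HQ averaged 1158 ± 237 CPM (SD, n = 3) and LQ 541 ± 69.0 CPM (SD, n = 3), giving a log2 difference of 1.08 (standard error 0.233, adjusted p = 0.00325 from limma), or 2.12-fold. It was the only member past the stricter rule stated in the study's methods, which asks for a 2-fold change and a group mean over 5 CPM besides the adjusted p, and which 5.18% of all miRNAs met with HQ above. The log2 difference fell below 1 without HQ replicate 1 (0.93) and without LQ replicate 2 (0.99), and the adjusted p from limma was 0.0661 when no miRNA was filtered out for low level.

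The other arm of the same hairpin did not pass the test. let-7d-5p, the guide, was at 712, 998 and 775 CPM in HQ and at 785, 621 and 631 CPM in LQ. The groups overlapped, with HQ replicate 1 below LQ replicate 1. The log2 difference was 0.28 (standard error 0.231, adjusted p = 0.391 from limma), with a 95% interval from -0.21 to 0.76. Both arms are shown in capitals in the hairpin, because one locus gave rise to both readings (chromosome 3 of Sscrofa11.1, 43468501 to 43468596, plus strand).
let-7d hairpin: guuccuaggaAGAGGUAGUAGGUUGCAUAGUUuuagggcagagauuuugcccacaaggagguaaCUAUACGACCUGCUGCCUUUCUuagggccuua

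The ratio of let-7d-3p to let-7d-5p inside a library does not depend on the scaling between libraries. In HQ it was 2.00, 0.974 and 1.39, and in LQ 0.779, 0.763 and 0.853, in the order of the replicate numbers. The passenger arm thus exceeded the guide in 2 of 3 HQ libraries and in no LQ library, and all HQ ratios lay above all LQ ratios. On the log2 scale the mean was 0.48 ± 0.52 (SD, n = 3) in HQ and -0.33 ± 0.085 (SD, n = 3) in LQ, a difference of 0.81 (p = 0.1 by a two-sided exact permutation test, which cannot go lower with 3 against 3). The HQ libraries differed among themselves by more than the difference between the groups. Of 66 hairpins with both arms tested, let-7d ranked 17 from the top by HQ minus LQ difference of this ratio, and the groups did not overlap in 20 of them.

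**Figure D3:**
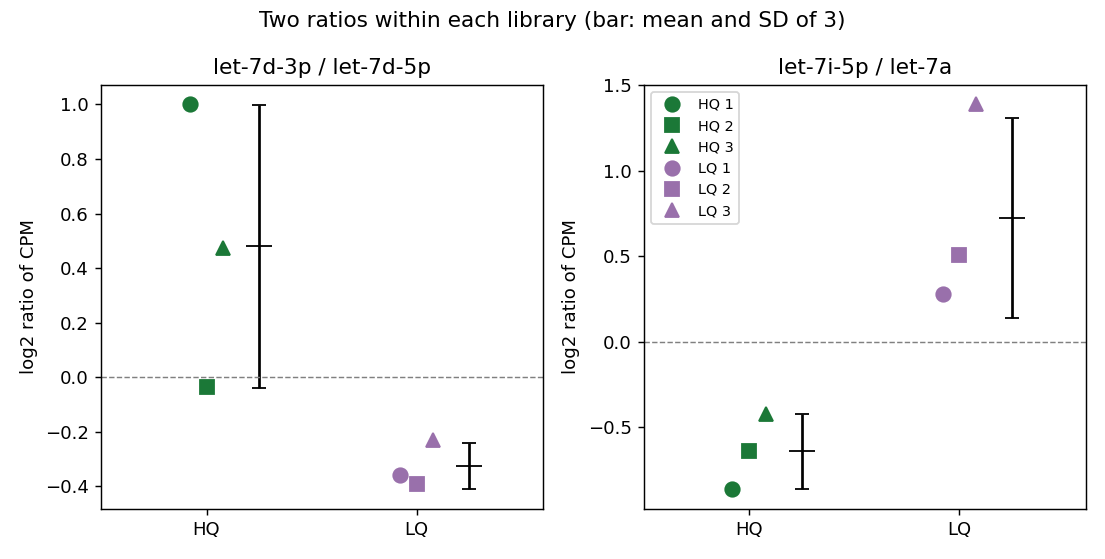
Log2 ratio of let-7d-3p to let-7d-5p (left) and of let-7i-5p to let-7a (right) in each library, with the mean and SD of the 3 libraries of a group beside the points. HQ lies above LQ for the let-7d arms (0.48 against -0.33), and LQ lies above HQ for let-7i-5p to let-7a (0.73 against -0.64), without overlap in both.

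let-7a, which lies both beside let-7f-2 and let-7d and, at its second locus, beside miR-100, was higher in HQ. It was at 30495, 25649 and 23315 CPM in HQ and at 22044, 16031 and 11174 CPM in LQ. All HQ libraries were above all LQ libraries, but HQ replicate 3 and LQ replicate 1 nearly met, and LQ replicate 3, the deepest library, was lowest. The log2 difference was 0.74 (standard error 0.225, adjusted p = 0.0213 from limma), or 1.67-fold. It did not pass without HQ replicate 1, HQ replicate 2, LQ replicate 2 or LQ replicate 3 (adjusted p of 0.0528 to 0.136 from limma), nor when libraries were scaled to miR-26b-5p, the ddPCR reference of the study (0.0639), with a variance prior without trend (0.131) or without a filter on low levels (0.204).

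let-7e, which lies beside miR-99b and miR-125a, had almost the same profile as let-7a at a lower level. It was at 2233, 1713 and 1601 CPM in HQ and at 1552, 1223 and 887 CPM in LQ. The groups did not overlap, though HQ replicate 3 and LQ replicate 1 were close. Its log2 difference of 0.62 (standard error 0.243, adjusted p = 0.0632 from limma) did not pass over the 6 libraries and was 0.81 (adjusted p = 0.0164) without LQ replicate 1. Without LQ replicate 3 it was 0.41 (adjusted p = 0.335 from limma).

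let-7c and let-7f-5p did not pass over the 6 libraries but did without LQ replicate 1. let-7c, the most abundant member, was at 42369, 42404 and 34711 CPM in HQ and at 43743, 25220 and 22797 CPM in LQ. The highest of all 6 values was LQ replicate 1, and the other LQ libraries lay below every HQ library. The log2 difference was 0.44 (standard error 0.221, adjusted p = 0.146 from limma) and 0.73 (adjusted p = 0.0118) without LQ replicate 1. Without LQ replicate 3 it was 0.26 (adjusted p = 0.469 from limma). let-7f-5p was at 18397, 16500 and 16317 CPM in HQ and at 16752, 11298 and 9914 CPM in LQ. Here too LQ replicate 1 fell among the HQ values, and the log2 difference was 0.47 (adjusted p = 0.104 from limma) against 0.69 (adjusted p = 0.0164) without it. Without LQ replicate 3 the let-7f-5p difference was 0.31 (adjusted p = 0.421 from limma). With all 6 libraries, let-7c, let-7e and let-7f-5p passed where libraries were weighted by their variance (log2 differences of 0.64, 0.70 and 0.60) or brought to the same total (0.63, 0.82 and 0.66). Over all miRNAs, 18.1% passed as higher in HQ with the weights and 19.4% with equal totals.

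miR-98, the rarest member, showed the same outlying library. It was at 98.6, 108 and 82.8 CPM in HQ and at 127, 76.3 and 62.3 CPM in LQ, so that LQ replicate 1 was highest and the other LQ libraries lowest. The log2 difference was 0.18 (standard error 0.287, adjusted p = 0.691 from limma), with a 95% interval from -0.42 to 0.78. let-7f and miR-98 share the host gene HUWE1 on chromosome X, but let-7f-5p also sums reads of the locus on chromosome 3.

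let-7i-5p was the member higher in LQ. It was at 16737, 16432 and 17405 CPM in HQ and at 26756, 22778 and 29293 CPM in LQ. The HQ libraries were close to each other (coefficient of variation 2.95%), and every LQ library was above them, LQ replicate 1 included. HQ averaged 16858 ± 498 CPM (SD, n = 3) and LQ 26276 ± 3284 CPM (SD, n = 3), giving a log2 difference of -0.63 (standard error 0.182, adjusted p = 0.0152 from limma), or 1.55-fold higher in LQ. It did not pass without HQ replicate 1, HQ replicate 2 or LQ replicate 3 (adjusted p of 0.0558 to 0.0879), with every library brought to the same total (log2 difference -0.44, adjusted p = 0.0732) or after a correction for GC content (-0.39, adjusted p = 0.115 from limma), nor with a variance prior without trend (0.0798) or without a filter (0.0672).

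Among the members, let-7g was the nearest to let-7i-5p both in sequence and in profile. Outside the family, miR-27b-3p, miR-152 and miR-660 were nearer to let-7i-5p in profile. let-7g was at 4523, 4534 and 4522 CPM in HQ and at 4427, 6174 and 6757 CPM in LQ. The HQ values were nearly identical, LQ replicate 1 was at their level and LQ replicates 2 and 3 were above. The log2 difference was -0.33 (standard error 0.210, adjusted p = 0.251 from limma), and -0.51 (adjusted p = 0.0631) without LQ replicate 1. Without LQ replicate 2 it was -0.27 (adjusted p = 0.516 from limma) and without LQ replicate 3 -0.21 (adjusted p = 0.637 from limma). let-7g and let-7i-5p were the only members with a negative difference, and the only ones with G12U and U18C. After the GC correction let-7g was at 0.12 (adjusted p = 0.728).

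**Figure D4:**
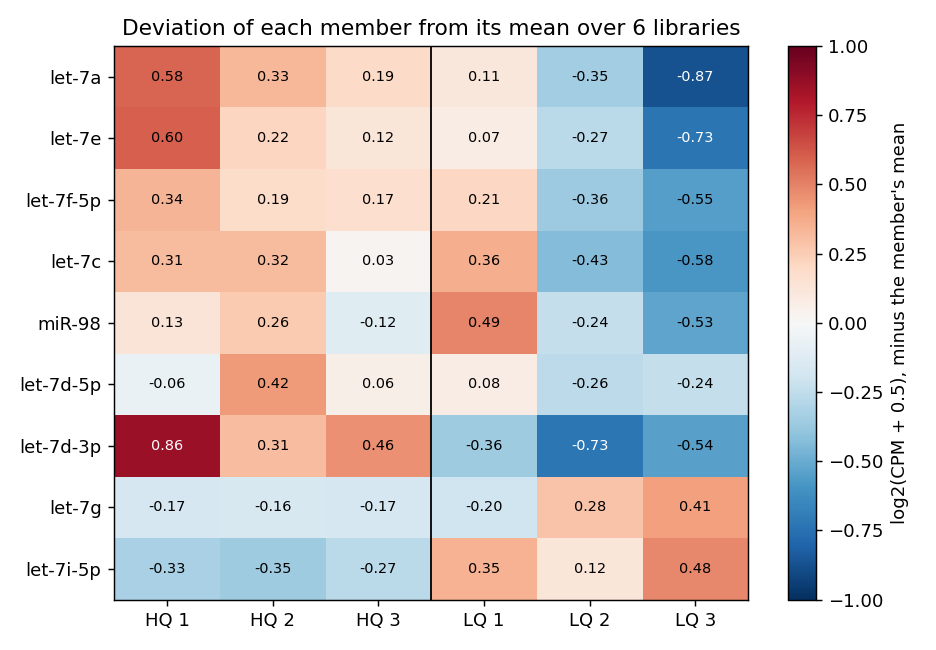
Deviation of each member from its own mean over the 6 libraries, on the log2(CPM + 0.5) scale, with HQ left and LQ right of the line. let-7a, let-7e, let-7f-5p, let-7c, miR-98 and let-7d-5p are above their mean in LQ replicate 1 (0.07 to 0.49) and below it in LQ replicates 2 and 3. let-7d-3p is below its mean in all 3 LQ libraries and let-7i-5p above it.

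The make-up of the guide pool was compared within libraries. Of the summed CPM of the 8 guides, let-7i-5p held 14.5%, 15.2% and 17.6% in HQ and 23.0%, 27.3% and 35.9% in LQ. All LQ libraries were above all HQ libraries, a difference of 13.0 percentage points on average. let-7a held 26.4%, 23.7% and 23.6% in HQ and 19.0%, 19.2% and 13.7% in LQ, again without overlap and in the opposite direction. let-7e and let-7f-5p also held larger shares in every HQ library, at means of 1.71% and 15.9% in HQ and 1.30% and 13.4% in LQ. The CPM of let-7f-5p itself overlapped between the groups. Shares of one sum are not independent, as a larger share of let-7i-5p lowers those of the other guides. For these 4 members the two-sided exact permutation test gave p = 0.1, the smallest possible, and 0.2 after adjustment over the 8 guides. The shares of let-7c, let-7g, let-7d-5p and miR-98 overlapped between the groups (exact permutation p of 0.3 to 0.8).

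**Figure D5:**
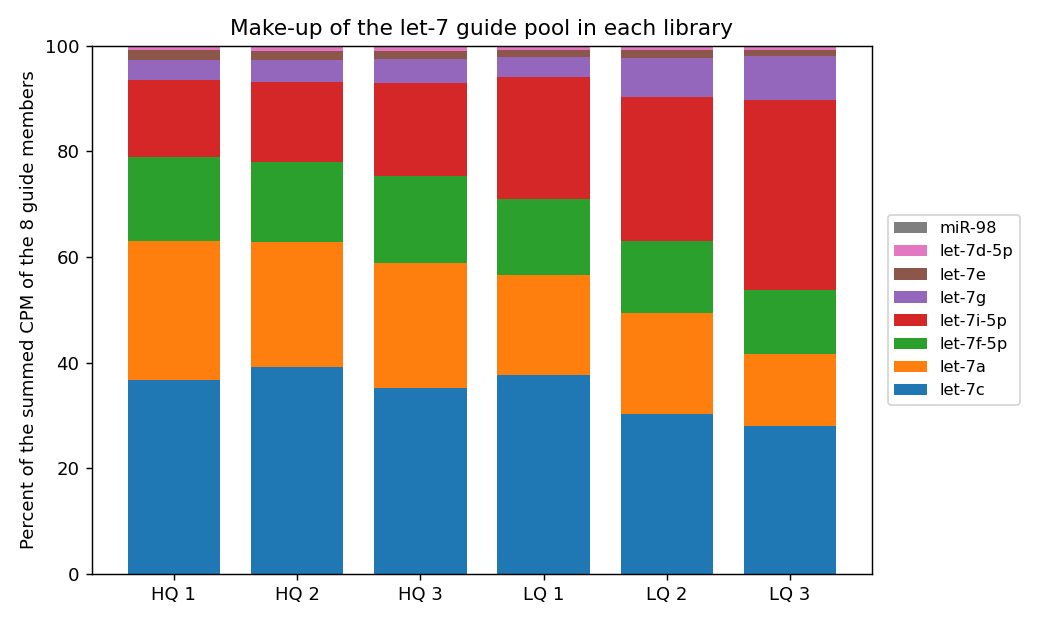
Percent of the summed CPM of the 8 guide members held by each of them, per library. The band of let-7i-5p grows from 14.5% to 17.6% in HQ to 23.0% to 35.9% in LQ, and that of let-7a shrinks from 23.6% to 26.4% to 13.7% to 19.2%.

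The opposite course of let-7i-5p and let-7a was measured by their ratio, which is free of the scaling between libraries. In HQ it was 0.549, 0.641 and 0.747, and in LQ it was 1.21, 1.42 and 2.62. let-7a was thus the more abundant of the pair in every HQ library and let-7i-5p in every LQ library. The log2 ratio differed by -1.37 for HQ minus LQ (p = 0.1 by the same exact permutation test, also 0.1 when adjusted over the 2 ratios tested), a 2.58-fold change of the ratio. Without LQ replicate 3, where the ratio was highest, the log2 difference was -1.04. The pair was chosen with the group means of the members known, so the test is no independent evidence.

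The family was also summed. The 9 members held 12.3%, 11.9% and 10.64% of the summed CPM of all miRNAs in HQ and 10.58%, 8.12% and 7.63% in LQ. HQ replicate 3 and LQ replicate 1 were nearly equal. The mean was 11.6% ± 0.887 (SD, n = 3) in HQ and 8.78% ± 1.58 (SD, n = 3) in LQ, and no test is given for this sum. The summed CPM of the 8 guides overlapped, at 98728 to 115565 CPM in HQ and 81516 to 116185 CPM in LQ. Between LQ replicates 2 and 3 the guide sum was nearly equal, at 83421 and 81516 CPM, while the let-7i-5p share differed (27.3% and 35.9%), so the make-up of the pool varied within the group as well.

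Of the miRNAs outside the family whose hairpin lies within 10000 bases of a let-7 hairpin, 4 of 5 passed the limma test as higher in HQ, against 11.7% of all miRNAs. These 5 miRNAs are not independent, as miR-99a-5p and miR-99a-3p share a hairpin and miR-99b and miR-125a lie beside the same let-7 hairpin. Of the 5 members that lie within that distance of another member (let-7a, let-7f-5p, both let-7d arms and miR-98), let-7a and let-7d-3p passed. The 4 miRNAs outside the family that passed were miR-99a-5p beside let-7c, miR-99b and miR-125a beside let-7e, and miR-100 beside let-7a-1. Log2 differences were 0.75 for miR-99a-5p, 0.90 for miR-99b and 0.87 for miR-100. Group means of miR-125a were 1704 CPM in HQ and 758 CPM in LQ. The fifth, miR-99a-3p, was at 0.55 (adjusted p = 0.132 from limma). LQ replicate 1 held 1845 CPM of miR-99a-5p, between the 1634 and 1968 CPM of the other LQ libraries, whereas let-7c, with a hairpin 646 bases away, was at its highest there. The difference of let-7c was smaller than that of miR-99a-5p (0.44 against 0.75), and the difference between the 2 was not tested.

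The other passenger arms in the table and a miRNA with a related seed were also compared. let-7f-3p averaged 143 ± 45.7 CPM in HQ and 102 ± 8.26 CPM in LQ (SD, n = 3 each), a log2 difference of 0.44 (adjusted p = 0.229 from limma). let-7i-3p averaged 53.1 ± 6.06 CPM in HQ and 60.5 ± 9.31 CPM in LQ (SD, n = 3 each), a log2 difference of -0.18 (adjusted p = 0.673 from limma). Each of these arms had the sign of its guide, without passing the test. miR-202-3p, a gonad-typical miRNA, has the seed GAGGUGU, which has its first 5 bases in common with that of let-7.
ssc-miR-202-3p: aGAGGUGUaggcaugggaa
It was at 714, 1252 and 752 CPM in HQ and at 604, 551 and 360 CPM in LQ, so that every HQ library lay above every LQ library, with a log2 difference of 0.83 (adjusted p = 0.0287 from limma). The far more abundant arm of that hairpin, miR-202-5p, overlapped between the groups, at means of 71448 CPM in HQ and 70526 CPM in LQ. Its log2 difference was -0.07 (adjusted p = 0.877 from limma).

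Profiles over the 6 libraries were compared by the root mean square difference of centred log2 values, where 0 means identical profiles. The member nearest to let-7a was let-7e (0.087), a miRNA from another chromosome that differs from it at 1 base. Outside the family, miR-10b (0.13), miR-23b (0.14) and miR-26a (0.16) were nearest to let-7a, against a median of 0.62 over all other tested miRNAs. let-7d-3p was nearest to miR-23b (0.20), miR-296-5p (0.22) and miR-7137-3p (0.23), all nearer than its nearest family member let-7a (0.32), and its distance to let-7d-5p was 0.50. let-7i-5p was nearest to miR-27b-3p (0.082) and miR-152 (0.083), followed by miR-660 (0.15), while let-7g stood at 0.26 and let-7a at 0.77. All profiles come from the same 6 libraries and share their differences in depth and composition.

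Base composition moved with the groups and bears on a family of low GC content. Across 256 tested miRNAs with a known sequence, levels rose with GC content in HQ libraries, by 0.057 to 0.25 on the log2 scale per 10 percentage points against the mean of all libraries, and fell in LQ libraries, with slopes of -0.20 to -0.17. After removing these lines, 5 members passed as higher in HQ, with let-7a at 1.18 and let-7f-5p at 1.08 (adjusted p = 0.00352 from limma for let-7f-5p), and none as higher in LQ (1 at an unadjusted p under 0.05). Over the 256 miRNAs of that fit, 11.3% passed as higher in HQ and 10.5% as higher in LQ. The correction removes any difference between the groups that follows GC content, whatever its source, and whether the slopes are technical was not tested.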

How the data were processed

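According to the study's methods, trimming, alignment to Sscrofa11.1 and assignment to miRBase entries were done in CLC Genomics Workbench, followed by TMM normalization. Bowtie2 2.2.2, bcl2fastq and DESeq2 appear in the submitters' processing notes, and which tool made the values was not settled. What the authors deposited is a TMM-adjusted signal in CPM, with library sums of 915120 to 1103611. Groups follow the oocyte quality in the labels.

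From these values, log2(CPM + 0.5) of 309 miRNAs (mean above 1 CPM in either group) was fitted with limma 3.58.1 in R 4.3.3, with an intensity trend and Benjamini-Hochberg adjustment over all of them. Ratios and shares were compared by exact permutation over libraries (scipy 1.17.1). The method was checked on simulated data. Tests made for read counts were not run, because too few low values were available to accept the steps in the values as reads. Sequences came from RefSeq (Sscrofa11.1), with 347 miRNAs matched by name, 20 once the arm was dropped, and 86 unmatched.

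Named were the 9 members, other let-7 arms, miRNAs within 10000 bases of a member's hairpin, miR-202-3p, and the 3 nearest profiles to let-7a, let-7d-3p and let-7i-5p. Members, lists and ratios were chosen with earlier results of these data known. Alternatives covered pseudocount, filter, variance prior, array weights, 3 scalings, GC correction, the replicate number as a block and leaving out each library. Figures were drawn with matplotlib 3.10.9.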

Additional observations from a re-analysis of the deposited data

How the results depend on the processing

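The count of members past the limma test moved with the processing, while the direction of most members did not. Higher in HQ were 2 members by the fit as reported, 5 with array weights, with equal library sums and after GC correction, 7 with the replicate block and GC correction together, 1 with scaling to miR-26b-5p and with a variance prior without trend, and 0 without a filter (1 at an unadjusted p under 0.05), where rows at 0 entered the variance trend and the adjustment covered 453 miRNAs. Leaving out each library gave 1 to 5. Over all miRNAs of the same fits, the share higher in HQ was 18.1% with array weights, 19.4% with equal sums, 11.3% with GC correction, 15.6% with the replicate block added to it, 5.83% with scaling to miR-26b-5p, 3.56% without trend, 0.442% without a filter and 2.90% to 15.4% with a library left out. Equal sums turned the split of all calls from 36 higher in HQ and 46 higher in LQ to 60 and 27. Higher in LQ was 1 member as reported and 0 with equal library sums, without a filter, without trend, after GC correction, alone or joined to the replicate block (1 at an unadjusted p under 0.05 in each), and leaving out each library gave 0 to 1. The cause of these moves was not tested. let-7g turned to 0.12 after GC correction, with and without the replicate block, and miR-98 ranged from -0.035 to 0.47 over the libraries left out. No other member changed sign under any of the 18 alternative fits. Equal sums raised the median of all miRNAs by 0.18 on the log2 scale.

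Replicate numbers are shared by the groups. The deviations of same-numbered libraries from their group means were uncorrelated (r of -0.036 to -0.0052 over 309 miRNAs). With 3 libraries per group, this cannot settle whether the numbers mark a pairing. With the replicate block 3 members passed as higher in HQ and 1 as higher in LQ, and the paired exact permutation test of the ratios gave p = 0.25, the smallest that 3 pairs allow. Both ratios, the let-7i-5p and let-7a shares and the family sum kept their sign under every alternative run for them. Depth limits miR-98 most, at 103 implied reads in LQ replicate 1.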

Other observations

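let-7e was a nearly fixed fraction of let-7a in all 6 libraries, at 7.32%, 6.68% and 6.87% of its CPM in HQ and 7.04%, 7.63% and 7.94% in LQ, while let-7a itself ranged from 11174 to 30495 CPM. The sequences differ by U9G only, and their loci lie on different chromosomes. Whether let-7a reads were counted as let-7e was not tested.

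Among 66 hairpins with both arms tested, the arm with the higher mean log2 level differed between HQ and LQ in 3. They were let-7d (3p over 5p in HQ), miR-7135, whose arms were at 0.783 to 4.55 CPM on average, and miR-425, where 5p exceeded 3p in HQ (1076 against 944 CPM) and 3p exceeded 5p in LQ (666 against 540 CPM). let-7d and miR-425 are the only ones of the 3 above 5 CPM in both arms. In HQ replicate 2 the let-7d-5p arm was the higher one (ratio of 3p to 5p 0.974), and the arm ratios of miR-425 overlapped between the groups. This pattern was noticed after the values were seen and has no test.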
